A study of Mus musculus with 6 samples.

Results

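The dual-specificity MAPK phosphatases are the enzymes that switch MAP kinases off, and their transcripts were followed in HC11 cells grown in medium with or without BMP7. The 10 genes *Dusp1*, *Dusp2*, *Dusp4*, *Dusp5*, *Dusp6*, *Dusp7*, *Dusp8*, *Dusp10*, *Dusp14* and *Dusp16* were chosen by name from the 55809 gene names counted. All 10 were found and had a count in some library, and 9 passed the filter on low counts and were tested. *Dusp2* did not pass, with 0, 2 and 4 counts in the Ctrl libraries and 1, 4 and 0 in the BMP7 libraries.

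HC11 is a single established line of mouse mammary epithelial cells, so every library shares 1 genetic background, and no animals were compared. The 3 BMP7 libraries came from medium that contained BMP7, a ligand of the TGF-beta superfamily, and the 3 Ctrl libraries from medium that did not contain it. The methods describe starving HC11 cells before BMP7 was added and give more than 1 duration, without naming the one used for sequencing. The labels do not say whether the libraries came from separate cultures, so p-values measure the spread between these libraries, which may be technical.

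MAP kinases are activated when an upstream kinase phosphorylates a threonine and a tyrosine in their activation loop, and these phosphatases remove both phosphates. ERK carries growth factor signals, including those of the FGF and EGF receptors that drive mammary epithelium to branch, whereas JNK and p38 respond to stress and cytokines and can also be activated below BMP receptors. The phosphatases differ in which kinase they prefer. *Dusp5*, *Dusp6* and *Dusp7* act mainly on ERK, *Dusp8*, *Dusp10* and *Dusp16* mainly on JNK and p38, and *Dusp1*, *Dusp2*, *Dusp4* and *Dusp14* fall outside these subgroups. Several of the genes are themselves transcribed in response to the kinases they turn off.

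Library totals ran from 19858701 to 20327200 fragments for Ctrl and from 14607938 (replicate 1) to 23748970 (replicate 3) for BMP7. The BMP7 libraries are called replicates 1, 3 and 4 here, after the numbers of their columns. The direct BMP targets *Id1*, *Id2*, *Id3*, *Smad6* and *Smad7* rose in the libraries labelled BMP7 by 2.21 to 6.31 on the log2 scale, 5 of 5 called. The 6 epithelial markers summed to 7804 to 7966 CPM (counts per library scaled to a common total, on the per-million scale) in Ctrl and 8098 to 9462 with BMP7, mostly *Krt5* and *Krt14*. Of these markers *Krt14* rose by 0.43 on the log2 scale, while *Epcam* fell by 0.42, *Cdh1* by 0.27 and *Krt18* by 0.67. Summed over 9 adipocyte markers, Ctrl held 25.1 to 35.1 CPM and BMP7 replicate 1 held 38.9, whereas BMP7 replicates 3 and 4 held 102.7 and 90.8. The 10 macrophage markers summed to between 46.7 and 51.0 CPM in Ctrl, 49.3 in BMP7 replicate 1, and 26.1 and 25.3 in BMP7 replicates 3 and 4. The 7 fibroblast markers summed to between 114.9 and 126.1 CPM in Ctrl and between 102.4 and 119.3 CPM with BMP7. Of 6 fibroblast markers tested, *Col1a2* rose by 1.65, *Dcn* by 1.67 and *Col3a1* by 0.65 on the log2 scale, and *Col1a1*, the most abundant, fell by 0.41. No marker of these lists was at 0 in every library, and the part of these differences in the results was not tested. A fit with BMP7 replicate 1 as the only BMP7 library, chosen after the values were seen, is given where it changed a call of a family member. Its spread comes from the Ctrl libraries alone, and the lone BMP7 library is assumed to vary as they do.

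The sequences upstream of *Dusp8*, *Dusp1* and *Dusp5* are shown because they hold the less common of the motifs searched, and that of *Dusp6* because it is the gene that fell and holds none. They are the 250 bases before the RefSeq gene start (GRCm38.p6), shortened where a GENCODE vM21 transcript of the same gene begins inside them, which left 203 bases for *Dusp1* and 214 for *Dusp5*. They lie at chr7:142095285-142095534 on the minus strand for *Dusp8*, chr17:26508520-26508722 on the minus strand for *Dusp1*, chr19:53528895-53529108 on the plus strand for *Dusp5* and chr10:99262981-99263230 on the plus strand for *Dusp6*. The vM21 start of *Dusp8* lies 12 bases downstream of the RefSeq start. Capitals mark each motif found, on either strand.
Dusp8: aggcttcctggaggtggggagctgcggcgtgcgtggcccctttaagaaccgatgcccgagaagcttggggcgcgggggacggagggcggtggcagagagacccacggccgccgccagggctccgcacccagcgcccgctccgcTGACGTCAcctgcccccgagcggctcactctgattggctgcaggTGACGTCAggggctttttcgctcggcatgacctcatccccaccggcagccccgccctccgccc
Dusp1: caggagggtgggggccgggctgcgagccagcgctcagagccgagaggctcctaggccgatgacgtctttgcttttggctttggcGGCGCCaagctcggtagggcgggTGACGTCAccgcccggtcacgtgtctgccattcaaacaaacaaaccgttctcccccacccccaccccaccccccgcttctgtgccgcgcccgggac
Dusp5: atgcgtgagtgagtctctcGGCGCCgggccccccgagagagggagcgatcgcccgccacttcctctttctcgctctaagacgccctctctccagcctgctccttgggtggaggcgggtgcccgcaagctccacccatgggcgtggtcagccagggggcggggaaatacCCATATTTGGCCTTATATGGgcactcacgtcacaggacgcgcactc
Dusp6: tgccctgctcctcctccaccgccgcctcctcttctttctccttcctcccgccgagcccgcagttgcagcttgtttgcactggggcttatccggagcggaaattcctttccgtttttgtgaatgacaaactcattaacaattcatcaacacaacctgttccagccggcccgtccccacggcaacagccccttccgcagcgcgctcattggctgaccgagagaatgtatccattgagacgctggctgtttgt

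Of the 10 genes, 9 had a RefSeq upstream sequence. The cAMP response element TGACGTCA, the site of CREB and ATF proteins, was present in 1.55% of all 32851 RefSeq upstream sequences of 250 bases. It occurred in *Dusp8*, beginning 107 and again 63 bases before the start, and in *Dusp1*, beginning 143 bases before it. *Dusp5* held a pair of adjoining CArG boxes, the site of serum response factor, beginning 82 and 72 bases before its start, and 1.47% of all upstream sequences held at least 1 such box. The GC-rich letters GGCGCC, which BMP-activated SMADs can bind, occurred in *Dusp1*, *Dusp2*, *Dusp5*, *Dusp7* and *Dusp14* and in 9.59% of all upstream sequences. The 9 windows held 56.4 to 77.2% G or C and 16 to 34 CG dinucleotides, against medians of 52.4% and 6 over all upstream sequences. The shares over all sequences are not matched for this composition. The number of phosphatases with GGCGCC or TGACGTCA therefore cannot be read as an excess. No 250-base window of *Dusp6*, *Dusp10* or *Dusp16* held any of the motifs searched, which also included the AP-1 site TGANTCA (6.75% of all), the ETS site CCGGAAGT (2.88%) and the SMAD palindrome GTCTAGAC (0.167%). None of the motifs found overlapped another. These matches describe letters only, and binding was not measured.

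Across the phosphatases, 3 rose with BMP7, 1 fell and 5 did not pass the test (edgeR's quasi-likelihood test, adjusted p under 0.05 and a fold change over 1.2). The count of rises fell to 1 on leaving out any 1 of Ctrl replicates 1, 2 and 3 and BMP7 replicates 1 and 3, and was 2 with DESeq2 or upper-quartile scaling. Of all 15733 genes tested, 5.99% were called higher and 5.38% lower. The JNK/p38-selective subgroup held 2 of the rises, *Dusp8* and *Dusp10*, and the ERK-selective subgroup held the fall, *Dusp6*. *Dusp1* was the only rise among the remaining genes. The call of *Dusp10* was lost in each of the 6 fits that left out 1 library. *Dusp8* was then the only rise of its subgroup. The BMP7 libraries lay entirely above the Ctrl libraries for 4 of the 9 tested phosphatases and entirely below for 1, where 29.8% of all genes tested had groups that did not overlap in either direction. The median log2 fold change was 0.16 over the 9 genes and -0.01 over all genes tested.

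**Figure D1:**
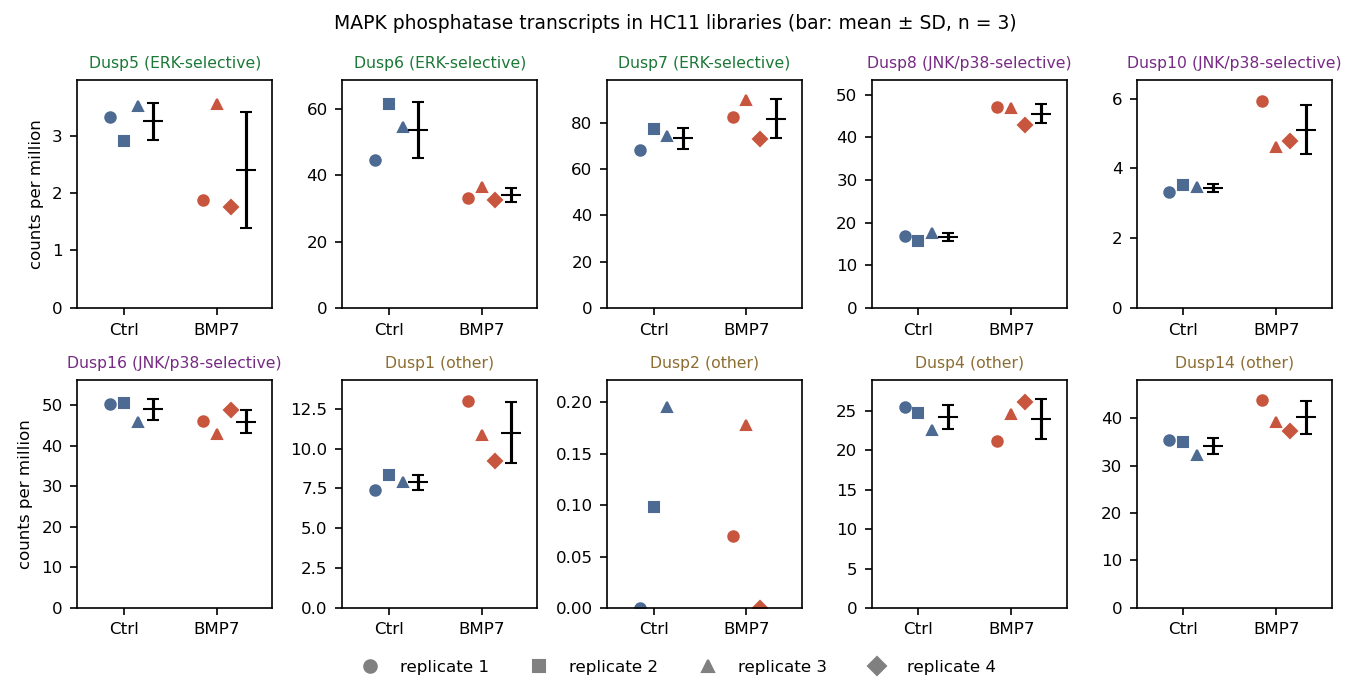
Level of each MAPK phosphatase transcript in CPM (vertical axes from 0, scaled per gene) in 3 Ctrl libraries (blue) and 3 BMP7 libraries (red), with the replicate number as the symbol and the mean ± SD as a black bar, which is left out for *Dusp2*. *Dusp8* sits at 42.97 to 47.0 with BMP7 against 15.6 to 17.5 in Ctrl, and *Dusp6* at 32.6 to 36.5 against 44.7 to 61.6.

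Among the ERK-selective phosphatases, *Dusp6* (MKP-3), a cytoplasmic ERK phosphatase and a well-known feedback target of FGF signaling, fell with BMP7. Its level was 44.7, 61.6 and 54.6 CPM in Ctrl replicates 1, 2 and 3, and 33.1, 36.5 and 32.6 CPM in BMP7 replicates 1, 3 and 4. The Ctrl libraries were more spread than the BMP7 libraries, yet the groups did not overlap. The means were 53.7 ± 8.5 CPM (SD, n = 3) in Ctrl and 34.1 ± 2.1 (SD, n = 3) with BMP7, a 1.57-fold fall (log2 fold change -0.65, SE 0.10, 95% interval -0.86 to -0.44, edgeR adjusted p = 0.0002333). The call held in all 12 alternatives run, with log2 fold changes of -0.77 to -0.54.

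*Dusp7*, another cytoplasmic ERK phosphatase, was the most abundant of the 10 per exon length and did not pass the test. It was counted at 68.1, 77.4 and 74.1 CPM in the Ctrl libraries and at 82.6, 89.7 and 73.2 CPM in the BMP7 libraries. BMP7 replicate 4 lay within the Ctrl values and the other two BMP7 libraries above them (log2 fold change 0.16, 95% interval -0.003 to 0.33, edgeR adjusted p = 0.198).

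*Dusp5*, the nuclear ERK phosphatase, was low, at 3.32, 2.90 and 3.52 CPM in Ctrl and 1.88, 3.56 and 1.76 CPM with BMP7. BMP7 replicate 3 stood at the Ctrl level while replicates 1 and 4 lay below every Ctrl library. The log2 fold change was -0.40 with a 95% interval of -0.95 to 0.16 (edgeR adjusted p = 0.366). It was -0.83 without BMP7 replicate 3, still not called. Of the exon length of *Dusp5*, 22.1% is shared with the antisense gene Gm50394, and fragments there were not counted for either gene, so its level is a lower estimate. *Dusp6* and *Dusp7* share no exon base with another gene.

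The JNK/p38-selective subgroup held the largest change of the 10 genes. *Dusp8*, which prefers JNK and p38, was counted at 16.9, 15.6 and 17.5 CPM in Ctrl replicates 1, 2 and 3, and at 47.0, 46.8 and 42.97 CPM in BMP7 replicates 1, 3 and 4. Every BMP7 library stood far above every Ctrl library, and the 3 BMP7 libraries were close to each other. The mean rose from 16.6 ± 0.96 CPM (SD, n = 3) to 45.6 ± 2.3 (SD, n = 3), 2.74-fold (log2 fold change 1.45, SE 0.08, 95% interval 1.28 to 1.63, edgeR adjusted p = 2.645e-09). *Dusp8* ranked 151 of 15733 genes by log2 fold change. The call held in all 12 alternatives, with log2 fold changes of 1.41 to 1.501. The gene spans chr7:141633227-141649580 on the minus strand (mm39, as deposited), and 1.36% of its exon length is shared with another gene.

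*Dusp10* (MKP-5), a JNK and p38 phosphatase, rose by a smaller amount from a low level. It was counted at 3.32, 3.54 and 3.47 CPM in Ctrl and at 5.92, 4.62 and 4.79 CPM with BMP7. The groups did not overlap, with BMP7 replicate 1 the highest library. The rise was 1.47-fold (log2 fold change 0.56, SE 0.18, 95% interval 0.18 to 0.93) and lay close to the threshold, with an edgeR adjusted p of 0.04704. The call was lost with DESeq2 (adjusted p = 0.0729), with upper-quartile scaling (0.0543), on leaving out any of the 6 libraries (0.0617 to 0.130), and with BMP7 replicate 1 as the only BMP7 library (0.0517), while the log2 fold change stayed at 0.45 to 0.78.

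*Dusp16* (MKP-7), which acts mainly on JNK, did not pass the test. It was counted at 50.4, 50.7 and 45.9 CPM in Ctrl and at 46.3, 43.0 and 48.8 CPM with BMP7, and the groups overlapped. The log2 fold change was -0.09 with a 95% interval of -0.25 to 0.06 (edgeR adjusted p = 0.472), so a change as large as that of *Dusp8* lies outside the interval.

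Among the remaining genes, *Dusp1* (MKP-1), an immediate-early nuclear phosphatase of ERK, JNK and p38, rose. It was counted at 7.42, 8.36 and 7.87 CPM in Ctrl and at 12.96, 10.8 and 9.20 CPM with BMP7. The groups did not overlap, and the BMP7 libraries were the more spread, with replicate 1 the highest. The rise was 1.39-fold (log2 fold change 0.47, SE 0.14, 95% interval 0.18 to 0.77, edgeR adjusted p = 0.0316). The call was lost without any 1 of Ctrl replicates 1, 2 and 3 or BMP7 replicates 1 and 3 (adjusted p 0.0671 to 0.111) and held without BMP7 replicate 4.

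*Dusp14* (MKP-6), a small atypical phosphatase without the kinase-binding domain of the classical members, stood at 35.3, 35.1 and 32.3 CPM in Ctrl and 43.9, 39.3 and 37.2 CPM with BMP7. The groups did not overlap, but the gene did not pass the test (log2 fold change 0.23, 95% interval 0.06 to 0.40, edgeR adjusted p = 0.0715). It was called without BMP7 replicate 4 (log2 fold change 0.28, adjusted p = 0.0424) and, with no BMP7 replicate to estimate spread, in the fit on BMP7 replicate 1 alone (0.36, adjusted p = 0.0385).

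*Dusp4* (MKP-2), a nuclear phosphatase related to *Dusp1*, stood at 25.5, 24.8 and 22.5 CPM in Ctrl and 21.3, 24.7 and 26.2 CPM with BMP7. The groups overlapped, and the log2 fold change was -0.01 (95% interval -0.21 to 0.19, edgeR adjusted p = 0.963). *Dusp2*, known from activated lymphocytes, reached at most 0.196 CPM in any library, and no fold change is given for it. For each of *Dusp1*, *Dusp6*, *Dusp8*, *Dusp10* and *Dusp14*, the exact permutation test of 3 libraries against 3 gave its smallest possible two-sided p of 0.1, so that test cannot separate them.

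**Figure D2:**
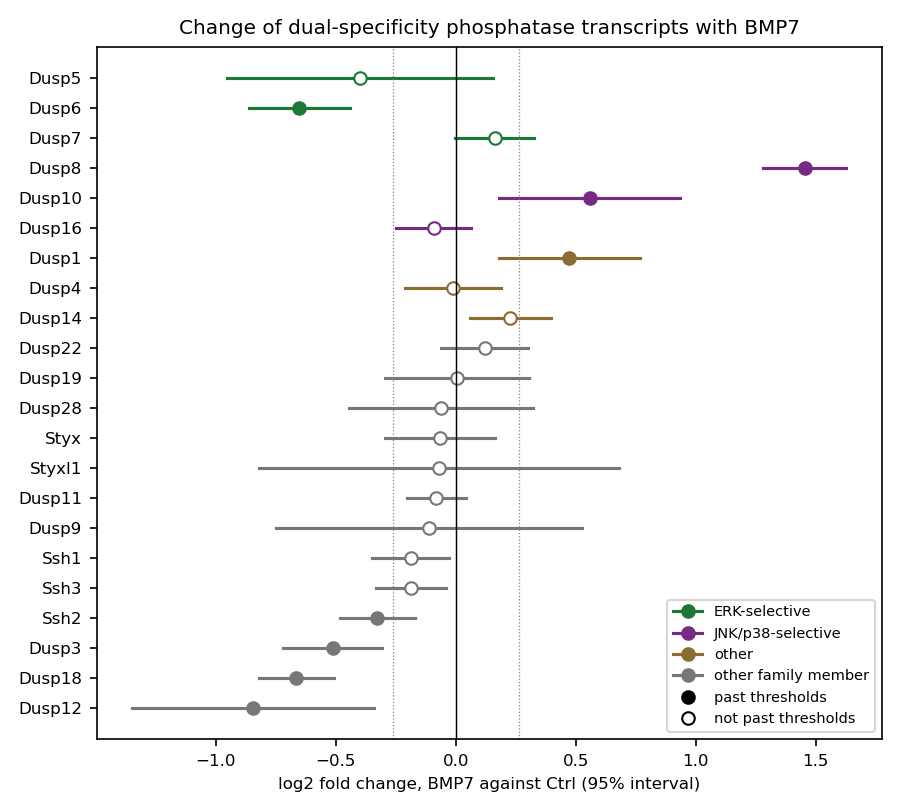
Log2 fold change (BMP7 against Ctrl, horizontal axis) with its 95% interval for the 9 tested MAPK phosphatases, coloured by subgroup, and for 13 other family members (grey). Filled points passed the thresholds, dotted lines mark a fold change of 1.2, and *Dusp8* (1.45) and *Dusp12* (-0.84) are the extremes.

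Levels of different genes were compared per exon length, as CPM per kilobase of summed exon length (RPKM). In Ctrl the order was *Dusp7* (21.8 ± 1.4 RPKM, SD, n = 3), *Dusp14* (17.6 ± 0.87), *Dusp6* (17.1 ± 2.7), *Dusp4* (8.86 ± 0.56), *Dusp16* (6.28 ± 0.34), *Dusp8* (3.42 ± 0.20), *Dusp1* (2.38 ± 0.14), *Dusp5* (1.31 ± 0.13), *Dusp10* (1.13 ± 0.036) and *Dusp2* (0.049 ± 0.049). *Dusp14* and *Dusp6* overlapped between libraries and did not differ beyond their spread, and all other neighbours were separate. With BMP7, *Dusp8* moved up to 9.36 ± 0.47 RPKM (SD, n = 3), between *Dusp6* at 10.9 ± 0.68 and *Dusp4* at 8.77 ± 0.92. *Dusp8* and *Dusp4* then overlapped, as did *Dusp7* (24.4 ± 2.5) and *Dusp14* (20.6 ± 1.8). *Dusp10* (1.68 ± 0.23) stood above *Dusp5* (0.97 ± 0.41), the reverse of their order in Ctrl. Shared exons make the level of *Dusp5* a lower estimate, so its place below *Dusp10* with BMP7 is uncertain. In Ctrl the lowest *Dusp5* library (1.17 RPKM) and the highest *Dusp10* library (1.16) were nearly equal. *Dusp16* (5.90 ± 0.37) and *Dusp1* (3.32 ± 0.57) followed *Dusp4*, and *Dusp2* (0.041 ± 0.045) was again the lowest.

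**Figure D3:**
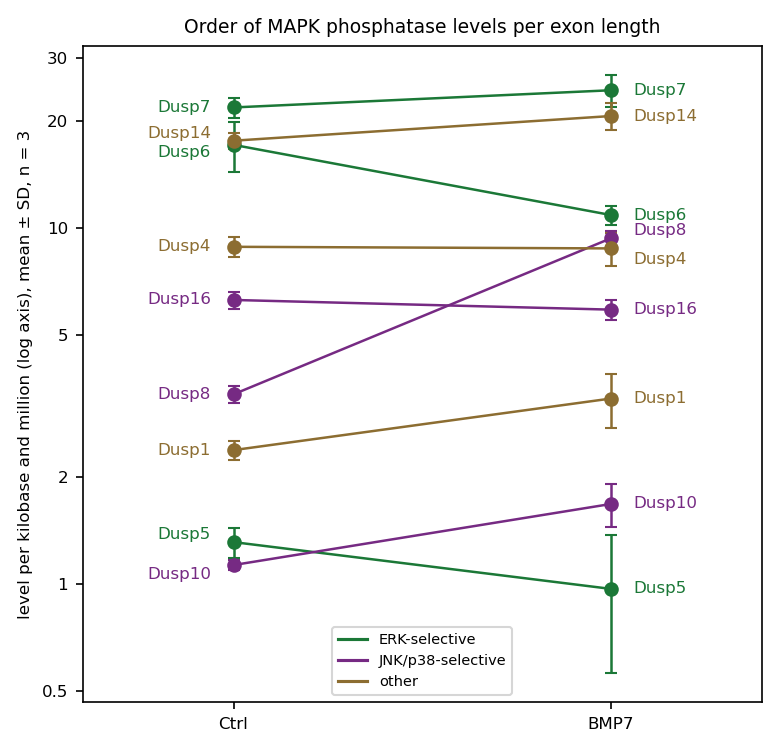
Mean level in RPKM (log axis) of 9 MAPK phosphatases in Ctrl and BMP7 libraries, with SD as error bars (n = 3 each) and lines coloured by subgroup; *Dusp2*, near 0, is left out. The line of *Dusp8* climbs from 3.42 to 9.36 RPKM and meets that of *Dusp4*, and the line of *Dusp6* drops from 17.1 to 10.9.

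Summed over each subgroup, the JNK/p38-selective level was 11.02, 10.9 and 10.6 RPKM in the Ctrl libraries and 17.5, 16.6 and 16.7 RPKM in the BMP7 libraries. The groups did not overlap, and *Dusp8* made up most of the difference. The ERK-selective level was 35.9, 43.9 and 40.96 RPKM in Ctrl and 35.9, 39.8 and 32.9 RPKM with BMP7, and the groups overlapped. The ratio of ERK-selective to JNK/p38-selective level was 3.26, 4.04 and 3.86 in Ctrl and 2.05, 2.39 and 1.98 with BMP7. It was lower in 3 of 3 BMP7 libraries than in any Ctrl library. Since the ERK-selective sums overlapped, the ratio mostly restates the rise of *Dusp8* and is no separate result about the subgroups. *Dusp6* alone stood at 4.12, 6.15 and 4.87 times the RPKM of *Dusp8* in Ctrl, and at 1.09, 1.21 and 1.18 times with BMP7. They are the member that fell and the member that rose most, so this ratio only restates their changes. The total over the 10 genes was 76.7, 84.4 and 78.9 RPKM in Ctrl and 87.8, 89.0 and 81.1 RPKM with BMP7, and those groups overlapped. In bulk RNA, fewer cells with a transcript and less of it per cell cannot be told apart, and protein and phosphatase activity were not measured.

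**Figure D4:**
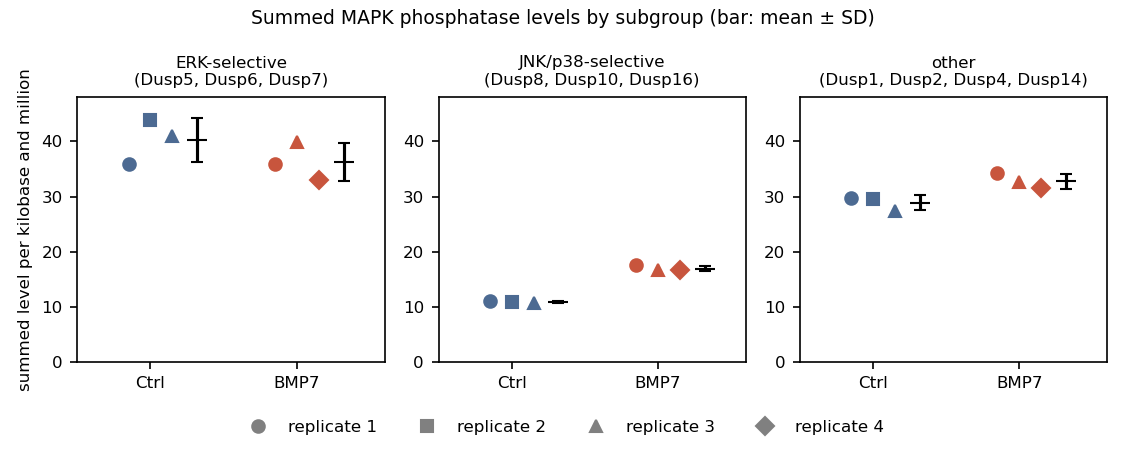
Summed level in RPKM (vertical axis from 0) of the ERK-selective, JNK/p38-selective and remaining MAPK phosphatases in each of 3 Ctrl and 3 BMP7 libraries, with the mean ± SD as a black bar. The JNK/p38-selective sum is 10.6 to 11.02 in Ctrl and 16.6 to 17.5 with BMP7, and the ERK-selective sums overlap.

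The genes also differed in the 3′ end of their transcripts. The letters ATTTA, the core of AU-rich elements found in many short-lived mRNAs, were counted in the 3′ UTR of the transcript with the longest coding sequence (GENCODE vM21). *Dusp8* held 5, *Dusp1* and *Dusp2* 4 each, *Dusp10* and *Dusp16* 3 each, *Dusp4* 2, *Dusp5* and *Dusp6* 1 each, and *Dusp7* and *Dusp14* 0. Over 21669 genes the median was 1 and 58.7% held at least 1. The UTRs differ in length, 2373 bases for *Dusp8* against a median of 742 over those genes. Per kilobase *Dusp2* held 6.85, *Dusp1* 5.77, *Dusp10* 2.69, *Dusp8* 2.11, *Dusp4* 1.8, *Dusp16* 1.24, *Dusp5* 0.899 and *Dusp6* 0.839, with a median of 0.994 over all. Transcript stability was not measured.

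The pattern of *Dusp8* over the 6 libraries was most like those of *Jun*, *Gse1* and *Cd24a* among genes outside the family, by Euclidean distance of centred log2 CPM (0.164, 0.191 and 0.195). That distance is set mostly by the difference between the groups, so it picks genes whose change was of like size. A link between these genes was not tested. *Jun*, a transcription factor that JNK phosphorylates, rose from 97.1 ± 6.1 CPM to 243.3 ± 14.4 (SD, n = 3 each), 1.32 on the log2 scale. *Gse1* rose by 1.34 and *Cd24a* by 1.32 on the same scale, and 27.9% of the exon length of *Gse1* is shared with other genes.

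Outside the 10 phosphatases, 13 other dual-specificity phosphatases and their relatives were tested, of 20 found. None was called higher (0 of 13 by edgeR, 0 at an unadjusted p under 0.05 and 0 by DESeq2), and 4 fell. Over all genes tested, 5.99% were called higher and 5.38% lower. *Dusp18* was counted at 41.8, 43.3 and 44.2 CPM in Ctrl and 26.7, 26.3 and 28.6 CPM with BMP7 (log2 fold change -0.66, SE 0.07, edgeR adjusted p = 8.421e-06). *Dusp3*, an atypical phosphatase known to act on ERK and JNK, was counted at 21.1, 22.8 and 20.7 CPM against 14.2, 14.7 and 16.5 CPM (-0.51, SE 0.10, edgeR adjusted p = 0.001632). Both were called in all 12 alternatives and their groups did not overlap. *Ssh2*, a phosphatase of the actin regulator cofilin, fell by 0.33 on the log2 scale (edgeR adjusted p = 0.00699) and lost the call without Ctrl replicate 2 (adjusted p = 0.0517). *Dusp12*, at 1.93 CPM with BMP7 against 3.44 in Ctrl, fell by 0.84 (edgeR adjusted p = 0.0261), but 50.5% of its exon length is shared with other genes and the call was lost on leaving out 4 of the 6 libraries in turn: Ctrl replicate 1 or 2, or BMP7 replicate 3 or 4 (adjusted p 0.0662 to 0.119). It was also lost with BMP7 replicate 1 as the only BMP7 library (log2 fold change -0.58, adjusted p = 0.313). *Dusp9*, the remaining classical ERK phosphatase, stood at 1.35 ± 0.11 CPM in Ctrl and 1.24 ± 0.19 with BMP7 (SD, n = 3 each) and did not pass the test.

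The other phosphatases known to act on MAP kinases held no call in either direction by edgeR or DESeq2 among 7 tested, with 2 higher and 0 lower at an unadjusted p under 0.05. Of all genes tested, 13.1% were higher and 13.1% lower at that unadjusted p. The kinases and adaptors of the ERK cascade, from growth factor receptor adaptors to ERK, likewise held no call among 17 tested (0 by edgeR, 0 by DESeq2, and 5 higher and 0 lower at an unadjusted p under 0.05). Their log2 fold changes ran from -0.36 to 0.23 with a median of 0.04. *Map2k1*, which encodes the ERK kinase MEK1 (log2 fold change 0.23, edgeR adjusted p = 0.0486), and *Mapk3*, which encodes ERK1 (0.20, adjusted p = 0.0375), passed the adjusted p and not the fold threshold. So did genes of other lists: *Ppp2ca* among the other phosphatases (0.23, edgeR adjusted p = 0.0141) and *Elk4* among the MAP kinase effectors (-0.25, 0.0253). In the JNK and p38 cascade *Map2k4* (0.23, edgeR adjusted p = 0.0249) and *Mapk14* (-0.25, 0.0340) did as well.

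In the JNK and p38 cascade, 4 of 24 tested genes rose and 1 fell, beside 5.99% higher and 5.38% lower over all genes tested. The rises included all 3 *Gadd45* genes, whose products bind and activate the kinase MEKK4 above p38 and JNK. *Gadd45b* was counted at 24.2, 23.4 and 22.1 CPM in Ctrl and 76.9, 66.1 and 61.4 CPM with BMP7 (log2 fold change 1.55, SE 0.09, edgeR adjusted p = 2.509e-09). *Gadd45g* rose by 1.63 on the log2 scale, from 8.40 ± 0.71 to 26.1 ± 5.4 CPM (SD, n = 3 each), and *Gadd45a* by 1.33, from 5.27 ± 0.76 to 13.3 ± 0.98 CPM. *Map3k20*, the stress kinase ZAK, rose by 0.49. *Map2k6*, which phosphorylates p38, was counted at 75.6, 66.8 and 74.9 CPM in Ctrl and 44.4, 42.4 and 45.9 CPM with BMP7 (log2 fold change -0.71, SE 0.07, edgeR adjusted p = 2.395e-06). The median over the 24 genes was -0.01. Of the exon length of *Gadd45a*, 19.1% is shared with another gene.

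Among kinases and substrates downstream of the MAP kinases, 3 of 16 rose and 0 fell (0 by DESeq2, and 1 at an unadjusted p under 0.05). The shares over all genes tested were 5.99% called higher and 5.38% lower. *Rps6ka5*, the kinase MSK1 that ERK and p38 activate, rose from 10.8 ± 0.76 to 24.6 ± 0.89 CPM (SD, n = 3 each), 1.18 on the log2 scale. *Mef2c*, a transcription factor that p38 phosphorylates, rose by 0.81, and *Elk3*, an ETS factor that represses until ERK phosphorylates it, by 0.30.

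Of 13 tested transcripts known to follow ERK activity, 2 rose and 4 fell, or 2 and 3 with DESeq2, which did not call *Ccnd1* (adjusted p = 0.22). By edgeR, 5.99% of all genes tested were called higher and 5.38% lower. *Etv5*, an FGF-responsive ETS factor, was counted at 15.1, 28.5 and 20.9 CPM in Ctrl and 7.04, 7.25 and 5.34 CPM with BMP7 (log2 fold change -1.71, SE 0.19, edgeR adjusted p = 1.008e-05). A processed pseudogene, Gm4798, matches 42.8% of the *Etv5* transcript, so its level is uncertain. *Spry1*, a feedback inhibitor of receptor tyrosine kinases, fell by 0.72, *Etv4*, a relative of *Etv5*, by 0.43 and the cyclin gene *Ccnd1* by 0.39 on the log2 scale, and the groups of *Ccnd1* overlapped. *Spred2*, another inhibitor of the ERK cascade, rose by 0.64 and *Phlda1* by 0.94. The median of the list was -0.19, beside -0.01 for all genes tested. Parts of the exon length of *Spry1* (24.4%), *Ccnd1* (23.4%) and *Phlda1* (33.0%) are shared with other genes.

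Of 16 immediate-early transcripts, which growth factors and stress induce within minutes in many cells, 5 rose and 4 fell. Beside them, 5.99% of all genes tested were called higher and 5.38% lower. The AP-1 genes *Junb* (log2 fold change 1.39), *Jun* (1.32) and *Jund* (0.76) rose, as did *Fos* (0.54). The zinc-finger factor *Egr2* fell by 1.01 on the log2 scale, from 7.32 ± 1.9 to 3.64 ± 0.14 CPM (SD, n = 3 each), and the mRNA decay factor *Zfp36l2* by 0.58. The remaining calls were 1 rise and 2 falls. Of the exon length of *Jund*, 52.6% is shared with the antisense gene Gm11175, so its level is uncertain.

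**Figure D5:**
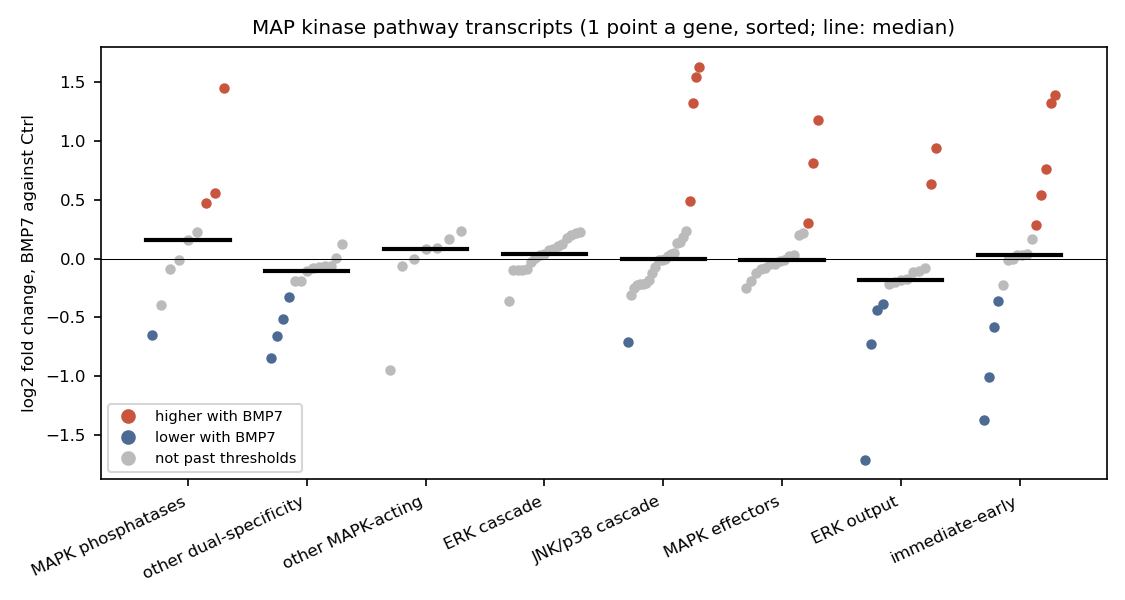
Log2 fold change (BMP7 against Ctrl, vertical axis) of each tested gene in 8 gene lists, 1 point a gene sorted within its list, with the list's median as a black line. Red points were called higher and blue points lower; the ERK cascade holds no coloured point, and *Etv5* (-1.71) is the lowest.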

How the data were processed

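Poly(A) RNA of HC11 cells was sequenced in 3 Ctrl and 3 BMP7 libraries. The authors aligned read pairs with subjunc (Subread 2.0.3 per the labels), counted fragments on exons per gene name with featureCounts, and deposited raw counts with each gene's summed exon length. The methods name mm10, and the header names featureCounts 2.0.1 and an mm39 annotation. Strand was not used, and fragments mapping to several places or genes were not counted, which lowers genes that share exons.

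Counts were tested in R 4.3.3 with edgeR 4.0.16 (filter by expression, TMM, quasi-likelihood test of BMP7 against Ctrl, Benjamini-Hochberg adjustment over 15733 genes), and calls needed an adjusted p under 0.05 with a fold change over 1.2. A run of the fit on simulated counts, drawn with the same relative spread for every gene, is not reported here and bears on no single call. SE is the log2 fold change over the square root of F. CPM and RPKM use TMM-scaled totals. Exact permutation tests used log2 CPM with a prior count of 2. Alternatives were DESeq2 1.42.0, RLE and upper-quartile scaling, no filter, at least 10 counts in every library, no fold threshold, leaving out each library and, chosen after seeing the data, BMP7 replicate 1 as the only BMP7 library. Exon overlaps came from the deposited annotation and near-identical transcripts from BLAST 2.17.0 (at least 95% identity over 100 bases) against GENCODE vM21. Pairs of libraries within a group differed by 5.00 to 11.8 times the sampling noise (chi-square per degree of freedom), so none was counted as a duplicate. Counting error dominates for genes of a few counts, where 1 count is 0.0444 to 0.0697 CPM.

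The phosphatases and the MAP kinase and marker lists were chosen with earlier results of these data known. Genes named are all 10 phosphatases, other family members past the thresholds, up to 6 called genes a list by adjusted p, the 3 genes nearest to *Dusp8* in pattern, and 5 BMP targets. *Dusp9*, *Map2k1*, *Mapk3*, *Ppp2ca*, *Elk4*, *Map2k4*, *Mapk14* and the cell type markers were not named by this rule, but chosen with their values known. Of the 22 other family names listed, Dusp13b and Styxl2 were not among the gene names counted.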

Additional observations from a re-analysis of the deposited data

How the results depend on the processing

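*Dusp8* and *Dusp6* were called in the same direction in all 12 alternatives. The count of phosphatases called higher ranged from 1 to 3 when each library was left out in turn. It fell to 1 without Ctrl replicate 1, 2 or 3 or BMP7 replicate 1 or 3, which left only *Dusp8*, and was 3 without BMP7 replicate 4, where *Dusp14* was called and *Dusp10* was not. The count called lower was 1 throughout. The count of other family members called lower ranged from 2 to 4 when each library was left out, and was 2 without Ctrl replicate 2. The log2 fold change of *Dusp4*, -0.01 and not called, ranged from -0.074 to 0.064 when each library was left out, and changed sign without Ctrl replicate 1 or 2 or BMP7 replicate 1. The cause of these changes was not tested. Without division by length, 4 of the 10 phosphatases kept their place in the Ctrl order, since longer transcripts then rank higher. No scaling moved the median of all genes by over 0.1 on the log2 scale. No paired analysis was possible because the BMP7 columns are numbered 1, 3 and 4 while the labels number those samples 1 to 3, so the columns carry no number that identifies a sample.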

Other observations

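Most of the tested transcripts known to follow ERK activity shared 1 order of level among the untreated libraries. That order was picked after their values were seen. *Dusp6* was lowest in Ctrl replicate 1 and highest in Ctrl replicate 2 (44.7 against 61.6 CPM). The same order, lowest in replicate 1 and highest in replicate 2, was found for 10 of 13 tested genes of the list of ERK-following transcripts, among them *Etv5* (15.1 against 28.5 CPM), *Etv4* (25.8 against 35.1) and *Ccnd1* (81.1 against 128.9). Of all 15733 genes tested, 16.7% had this order. Among the MAPK phosphatases *Dusp1*, *Dusp7* and *Dusp10* also had it, 4 of 9 with *Dusp6*, whereas *Dusp8* was lowest in Ctrl replicate 2. Some of these orders rest on very small differences. *Dusp10* had 69, 72 and 71 counts in Ctrl replicates 1, 2 and 3. *Spred2* and *Spry2*, of the ERK-following list, had equal counts in Ctrl replicates 1 and 3. These were 1520 in each for *Spred2* and 320 in each for *Spry2*, so only scaling sets those replicates apart. In the other lists it was held by 5 of 17 genes of the ERK cascade (29.4%), 4 of 24 of the JNK and p38 cascade, 3 of 16 MAP kinase effectors, 3 of 16 immediate-early genes, 1 of 5 BMP targets, 0 of 13 other dual-specificity phosphatases and 0 of 7 other phosphatases that act on MAP kinases. The order was picked from these same values and the genes share the libraries, so the counts are descriptions, and no test was run. Without Ctrl replicate 2, *Dusp6* was still called lower with BMP7.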
